A study of Rattus norvegicus with 16 samples.

Results

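The comparison of injured supraspinatus muscle at 60 days with injured muscle at 10 days uses 8 of the 16 libraries of a rat rotator cuff study, and every gene of its table. The 8 were chosen by the time given in their labels: 4 libraries at 10 days and 4 at 60 days. Of 17147 genes in the table, 11658 had enough fragments to be tested. Both groups are Sprague Dawley rats, and both carried the same operation, a full-thickness supraspinatus tear made on both sides together with suprascapular neurectomy, the removal of a stretch of the muscle's nerve. By the labels the groups differ in the time after it. Age, sex, weight and any housing difference are not given in the sources used here, so time after injury and the age of the animals cannot be told apart. The labels do not say whether libraries came from separate rats, and p-values then measure the spread between these libraries. The remaining 8 libraries, unoperated muscle at 0 days and injured muscle at 30 days, entered the model for its estimate of the spread and are quoted below as levels only.

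The supraspinatus lifts and steadies the shoulder, and its tendon is part of the rotator cuff. A muscle cut off from its nerve loses electrical activity, spreads acetylcholine receptors over its surface, makes the fetal receptor and other channels of immature fibres, and breaks down contractile protein through the proteasome and lysosomes. A muscle cut off from its tendon also loses tension, and in the rotator cuff such muscle is known to gain fat and connective tissue. Contact of a nerve with the fibres brings the receptor genes and the fetal isoforms down again.

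The 8 libraries held 17.2 to 28.7 M fragments (M, mega). Totals were lower at 60 days, at 19.5 ± 2.56 M (SD, n = 4), than at 10 days, at 26.5 ± 1.76 M, with an exact permutation p of 0.0286, the smallest that 4 against 4 libraries can give (adjusted p = 0.0429 over 3 such measures). Levels are given as CPM, counts per 1 M fragments, after TMM scaling, and values for a gene are listed for libraries 1 to 4 of a group, numbers that carry no order. Fold changes are at 60 against 10 days and carry their standard error (SE). The level of 3 fragments, taken as the floor of detection, was 0.0871 to 0.0989 CPM at 10 days and 0.133 to 0.175 CPM at 60 days on the same scale; it covers counting error only. Thinned to equal depth, the groups held 12977 ± 81.0 and 12942 ± 95.3 genes with a fragment, a difference smaller than their spread (exact permutation p = 0.657). The 8 libraries carried muscle RNA by its markers: the 6 measured fibre markers summed to 46716 to 50433 CPM at 10 days and to 110631 to 127970 CPM at 60 days, whereas the listed T, B and NK cell genes summed to 10.8 to 24.8 CPM in all 8. In such bulk RNA, fewer cells of a type and less RNA per cell cannot be told apart. Every CPM level below is relative to the rest of its library after TMM scaling, and is not a plain share of fragments.

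Of the genes tested, 61.1% (7120) passed an adjusted p of 0.05 in edgeR's quasi-likelihood test. The 3398 genes that were higher at 60 days were 29.1% of those tested, and the 3722 that were lower were 31.9%. For 51.2% of genes the 4 libraries of each group did not overlap. Those shares are the background for every count of a gene group below. Over all genes the median log2 fold change was -0.007. At 4-fold or more, 195 genes rose and 214 fell, and at 8-fold or more 48 rose and 80 fell. The balance of directions depended on the scaling: scaled by library totals alone, 28% of the calls were higher instead of 47.7%, since that scaling moved the median of all genes by -0.25.

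**Figure D1:**
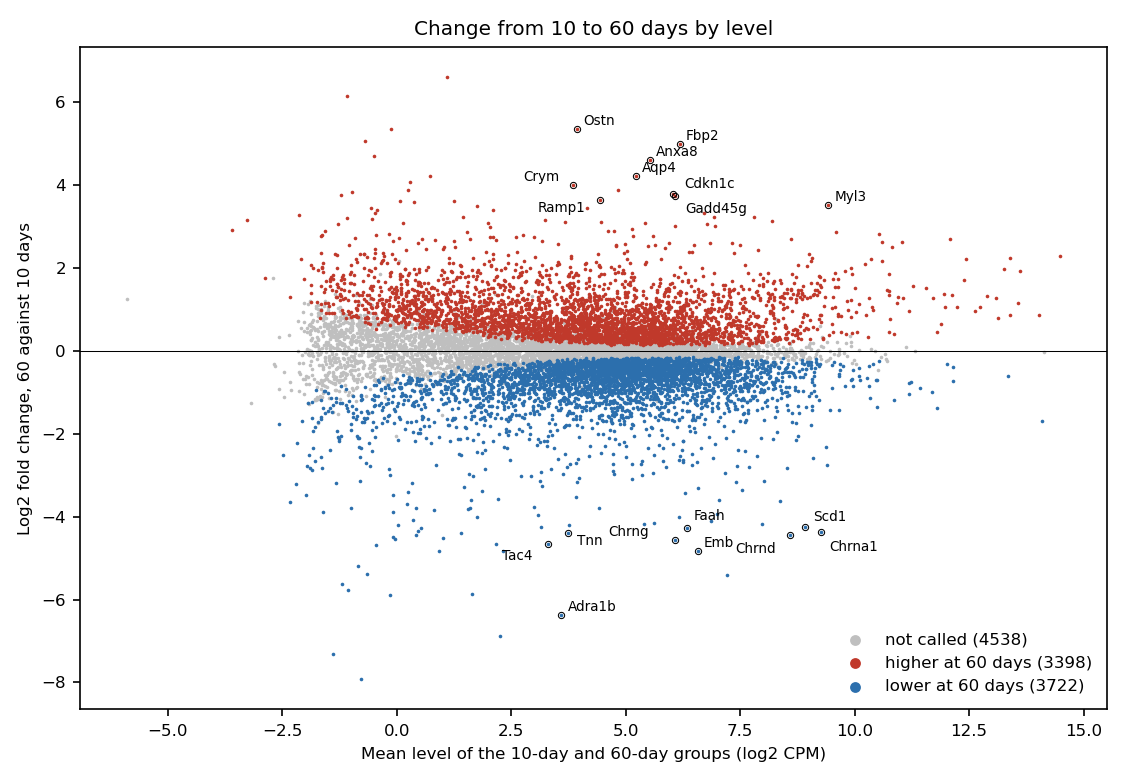
Each point is 1 of the 11658 genes tested; the x axis is the mean level of both groups (log2 CPM) and the y axis the log2 fold change at 60 against 10 days. Red and blue points passed the test, and the circled genes are from the 10 largest rises and falls among genes with a mean of at least 5 CPM, from Ostn (5.35) to Adra1b (-6.38).

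The composition of the libraries shifted with time. Shares and ranks here are over the genes of the table, from which the listed fibre genes Ttn and Neb are missing. Among its genes, the imprinted noncoding RNA H19 was the largest at 10 days with 3.22% of fragments, and H19 held 0.836% at 60 days. Its level was 25646, 21355, 20740.4 and 39158 CPM at 10 days and 11153, 7529, 7843 and 6705 at 60 days, and no 60-day library reached a 10-day one (log2 fold change -1.69 ± 0.33, edgeR adjusted p = 3.65e-04). At 60 days the largest transcript was skeletal alpha-actin, Acta1, with 3.87% of fragments against 0.937% at 10 days. The 10 largest genes took 18.9% ± 0.542 (SD, n = 4) of fragments at 60 days and 13.3% ± 0.960 at 10 days (exact permutation p = 0.0286, the smallest possible; adjusted p = 0.0429). Myoglobin, Mb, which stores oxygen in fibres, was among the 10 largest in both groups, at 18473, 20544, 15484 and 18137 CPM at 10 days and 22788, 16941, 17018 and 15133 at 60 days; the groups overlapped and the difference did not pass the test (log2 fold change -0.015 ± 0.14, edgeR adjusted p = 0.931), its sign changing with the scaling. H19 and Mb were chosen after their values were seen.

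Libraries of a group differed more among themselves at 60 days. The median SD of log2 CPM over the 4 libraries was 0.15 at 10 days and 0.21 at 60 days, and it was the larger at 60 days for 65.4% of genes. The first principal component of the 8 libraries separated the times and held 72.6% of the variance, and the next, with 8.09%, ran mainly among the 60-day libraries. Library 1 at 60 days lay nearest to the 10-day side. It had the lowest correlation with the averaged profile of the other libraries of its group (0.985, against 0.989 to 0.994 for the other 7). Without it the count of changed genes was 7367.

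**Figure D2:**
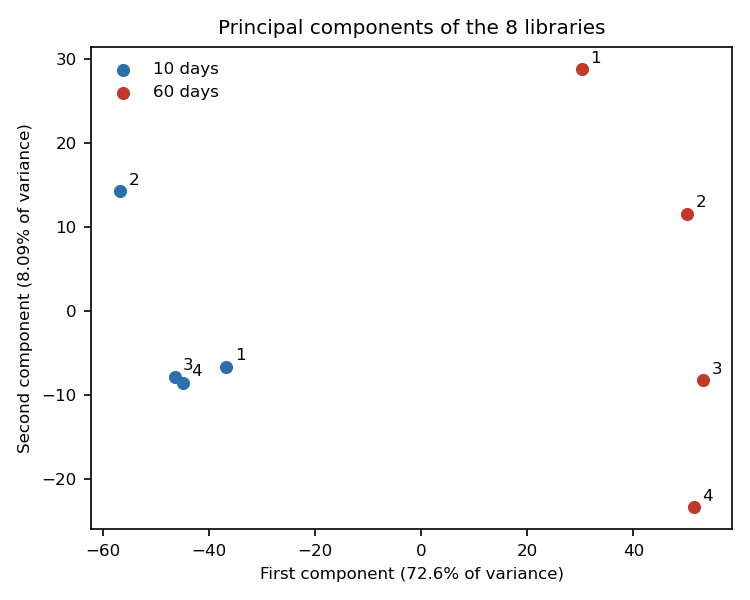
Principal components of log2 CPM in the 8 libraries, with numbers marking the libraries of each group. The 10-day libraries (blue) lie left of the 60-day libraries (red) on the first component, and the 60-day libraries spread along the second.

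The 30-day level lay between the other times for most genes with a change of at least 2-fold: for 92.9% of the 1161 that rose and 86.8% of the 965 that fell. It was nearer to 60 than to 10 days for 74.5% of the rises and 63.1% of the falls. These counts describe group means only, since the 10-day and 60-day values also define the changes.

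Among the gene lists, that of the denervation response and neuromuscular junction had the lowest median. Of its 24 measured genes, 15 fell and 7 rose, with a median log2 fold change of -0.96 beside -0.007 over all genes. The deep falls included receptor genes of uninnervated fibres, and the rises included Ache and Dok7, whose products belong to the mature synapse. Other genes of the synapse split: Agrn (log2 fold change 0.840) and Colq (0.684) also rose, while Rapsn (-0.761) and Lrp4 (-0.529) fell. With library totals 16 fell and 3 rose. Summed over the list, levels were 6099.5 to 8403 CPM at 10 days and 1935 to 3492 CPM at 60 days.

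The muscle acetylcholine receptor is built of subunits, and several of their genes are known to be driven through E-boxes, short sequences such as CAGCTG that MyoD-family factors bind. To show where these letters stand in the genes that moved most and in the one that did not, the 250 bases before the RefSeq start are printed for 5 genes of the synapse, 5′ to 3′ on the gene's strand in the assembly GRCr8, with each CAGCTG in capitals. The coordinates are chr3:78877354-78877603 (minus strand) for Chrna1, chr10:55015108-55015357 (minus) for Chrnb1, chr9:95325734-95325983 (plus) for Chrng, chr10:55834155-55834404 (minus) for Chrne and chr5:77853486-77853735 (plus) for Musk.
Chrna1: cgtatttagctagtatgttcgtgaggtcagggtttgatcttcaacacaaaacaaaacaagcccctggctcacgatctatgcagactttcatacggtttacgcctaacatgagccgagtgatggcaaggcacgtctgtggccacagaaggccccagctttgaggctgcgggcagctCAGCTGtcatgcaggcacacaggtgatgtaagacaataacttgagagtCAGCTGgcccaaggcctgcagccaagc
Chrnb1: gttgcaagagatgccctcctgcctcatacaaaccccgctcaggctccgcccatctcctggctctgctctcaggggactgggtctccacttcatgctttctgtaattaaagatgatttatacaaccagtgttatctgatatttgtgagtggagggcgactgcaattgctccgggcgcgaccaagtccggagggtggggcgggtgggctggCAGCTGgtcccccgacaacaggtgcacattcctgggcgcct
Chrng: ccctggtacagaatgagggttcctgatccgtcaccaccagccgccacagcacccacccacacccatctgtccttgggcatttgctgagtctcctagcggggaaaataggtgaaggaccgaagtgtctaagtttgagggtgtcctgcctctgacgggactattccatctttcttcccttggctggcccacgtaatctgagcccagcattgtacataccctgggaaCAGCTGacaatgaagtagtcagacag
Chrne: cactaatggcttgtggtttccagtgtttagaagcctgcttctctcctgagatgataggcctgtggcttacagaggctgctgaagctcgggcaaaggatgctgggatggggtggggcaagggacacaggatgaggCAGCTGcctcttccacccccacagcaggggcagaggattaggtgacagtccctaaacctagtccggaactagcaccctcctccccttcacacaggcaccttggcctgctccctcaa
Musk: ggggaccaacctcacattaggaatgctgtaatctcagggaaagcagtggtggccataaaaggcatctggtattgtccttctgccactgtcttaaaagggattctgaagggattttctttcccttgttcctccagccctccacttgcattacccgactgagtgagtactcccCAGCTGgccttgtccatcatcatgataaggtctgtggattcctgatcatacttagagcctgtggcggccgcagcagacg
CAGCTG reads the same on both strands. It was found in 7 of the 20 listed genes with a RefSeq promoter (35.0%), against 11.9% of all 27457 promoters of that length. Its first base lies nearest to the start in Chrng (26 bases before it), then in Chrna1 (27, with a further copy 75 bases before) and Chrnb1 (41). A match of letters is a description and not a shown binding site.

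Chrna1 encodes the alpha subunit that binds acetylcholine. Its level was 979.8, 1461, 1106 and 1177 CPM at 10 days and 91.6, 51.3, 26.5 and 57.5 at 60 days, so the lowest 10-day library stood over 10 times above the highest 60-day library (log2 fold change -4.38 ± 0.36, edgeR adjusted p = 1.00e-07). The delta subunit gene Chrnd ran at 628, 889, 699 and 707 CPM at 10 days and 38.5, 40.8, 22.8 and 33.2 at 60 days (log2 fold change -4.43 ± 0.29, edgeR adjusted p = 1.79e-08). Chrng encodes the gamma subunit, which is found in the fetal receptor and is made again after denervation. It stood at 98.0, 149.8, 132 and 135 CPM at 10 days and 6.64, 4.71, 2.75 and 7.24 at 60 days, with every 60-day library far under the 10-day ones (log2 fold change -4.57 ± 0.48, edgeR adjusted p = 1.10e-06). Its adult counterpart, the epsilon subunit gene Chrne, was at 42.8, 72.6, 50.6 and 58.0 CPM at 10 days and 37.1, 66.7, 42.8 and 55.1 at 60 days; the groups overlapped and the difference did not pass (log2 fold change -0.15 ± 0.23, edgeR adjusted p = 0.582). Chrne and Chrnb1 fall outside the naming rule and were chosen after their values were seen; Chrnb1, the beta subunit gene, fell by 1.17 on the log2 scale. A CAGCTG stood before Chrne too, whose difference did not pass, and before subunit genes that fell by very different amounts. Chrne overlaps Gp1ba in RefSeq.

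Musk encodes the kinase through which nerve agrin clusters receptors. It measured 16.3, 19.8, 14.7 and 22.0 CPM at 10 days and 3.5, 3.37, 2.81 and 4.53 at 60 days, with no overlap (log2 fold change -2.35 ± 0.23, edgeR adjusted p = 3.90e-07). Ncam1, the neural cell adhesion molecule that covers the surface of denervated fibres, ran at 300.3, 367, 318 and 240.3 CPM at 10 days and 55.8, 27.3, 20.6 and 32.5 at 60 days (log2 fold change -3.17 ± 0.27, edgeR adjusted p = 1.28e-07). The transcription factor gene Myog, myogenin, which drives receptor genes, was at 444, 518, 496 and 481 CPM at 10 days and 135, 116, 85.8 and 107 at 60 days, a tight and fully separated pair of groups (log2 fold change -2.13 ± 0.15, edgeR adjusted p = 1.83e-08). At 0 days the means of Chrna1, Ncam1 and Myog were 18.4, 10.2 and 23.8 CPM, so the 60-day means of 56.7, 34.0 and 111 CPM were nearer to unoperated muscle than the 10-day means.

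Ache encodes acetylcholinesterase, which clears the transmitter from the synapse. Its level was 15.5, 7.23, 7.48 and 6.30 CPM at 10 days and 58.0, 66.3, 58.5 and 68.9 at 60 days, and library 1 stood apart at 10 days (log2 fold change 2.78 ± 0.26, edgeR adjusted p = 2.99e-07). The RefSeq span of Ache overlaps Ufsp1, and fragments of overlapping genes may be shared. Dok7, whose product activates the Musk kinase, was at 17.0, 15, 14.9 and 14.7 CPM at 10 days and 36.2, 31.5, 24.3 and 22.3 at 60 days (log2 fold change 0.89 ± 0.17, edgeR adjusted p = 2.26e-04). Cdkn1a, the cell cycle inhibitor p21, is also on the list and did not pass (edgeR adjusted p = 0.145): it stood at 1636, 1921, 1412 and 1809 CPM at 10 days and 2199, 852, 914 and 987 at 60 days, and without library 1 at 60 days, the one 60-day value above every 10-day one, its adjusted p was 0.000283 with a log2 fold change of -0.89. It was chosen after its values were seen.

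**Figure D3:**
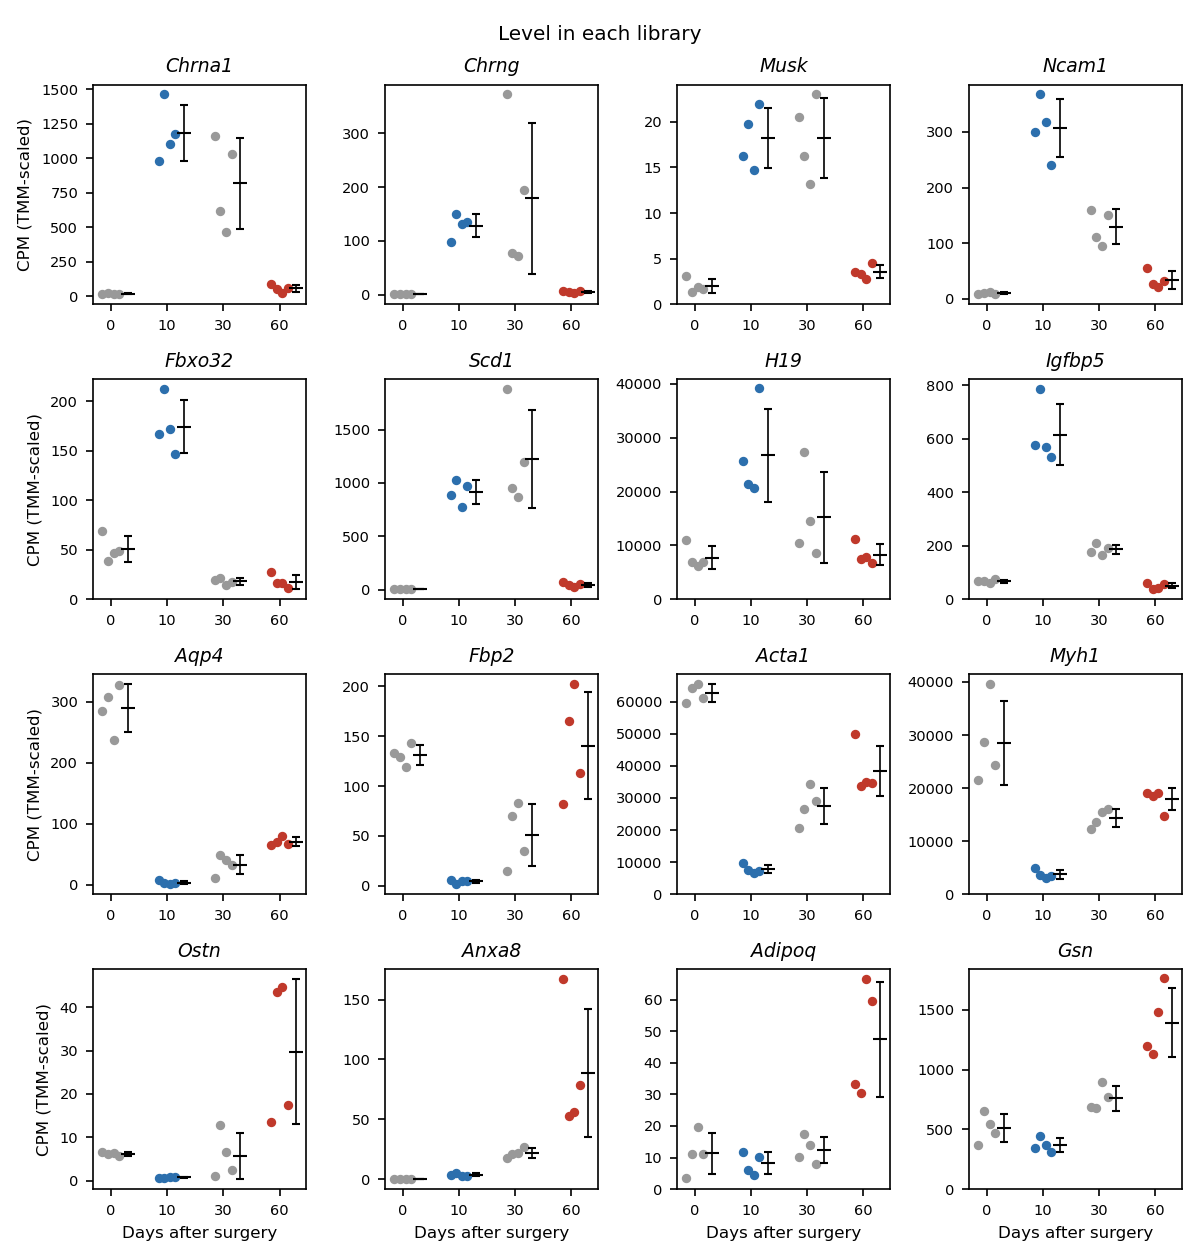
Level (CPM, TMM-scaled, linear axes) of 16 genes in every library by days after surgery; blue points are the 10-day and red the 60-day libraries, grey the 0-day and 30-day libraries, and bars show the mean and SD of 4 libraries. In the upper 8 panels the 60-day libraries all lie under the 10-day libraries, and in the lower 8 panels all lie above them.

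Genes of muscle formation moved in both directions, at shares near those of all genes. Of 19 measured myogenic regulators and satellite cell genes, 7 fell (36.8%, beside 31.9% of all genes) and 5 rose (26.3%, beside 29.1%). The rises were 3 without library 2 at 10 days or library 1 at 60 days. The list median was -0.26. The deepest fall was that of the fusion gene Tmem8c, now called Mymk, whose product lets myoblasts join: 13.2, 13.5, 14.9 and 21.4 CPM at 10 days and 1.52, 1.12, 1.70 and 2.76 at 60 days (log2 fold change -3.13 ± 0.39, edgeR adjusted p = 5.67e-06). The 30-day mean of 45.0 CPM was higher than either. Myod1, a master regulator of the lineage named here after its values were seen, was at 219, 198, 235 and 148 CPM at 10 days and 108, 43.6, 45.0 and 69.4 at 60 days (log2 fold change -1.58 ± 0.28, edgeR adjusted p = 1.85e-04). Mef2a, a transcription factor that works with it, fell by 1.59 on the log2 scale, library 1 at 60 days standing apart at 74.0 CPM from the others at 36.8 to 38.3 CPM. Among the rises, Heyl, a target of Notch signalling, went from 9.32 ± 1.69 to 21.8 ± 2.32 CPM (SD, n = 4; log2 fold change 1.22 ± 0.12, edgeR adjusted p = 3.88e-07). Calcr, the calcitonin receptor of quiescent satellite cells, went from 0.76 ± 0.225 to 2.07 ± 0.713 CPM (log2 fold change 1.43 ± 0.34, edgeR adjusted p = 0.00156). The defining satellite cell gene Pax7 was at a mean of 0.957 and 1.23 CPM and did not pass.

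Contractile genes of adult fibres were higher at 60 days. Of 18 fast fibre genes 14 rose and 2 fell (median 1.22), and of 16 slow fibre genes 15 rose (median 1.45) while the other did not pass. Myh1, the fast IIx myosin heavy chain, ran at 4924, 3592, 3074 and 3356 CPM at 10 days and 19150.2, 18531, 18991 and 14777 at 60 days, and every 60-day library was at least 3 times any 10-day library (log2 fold change 2.26 ± 0.19, edgeR adjusted p = 9.05e-08). Myh2, the IIa chain, was at 3367, 1607, 1234 and 1669 CPM at 10 days and 9373, 8127, 9880 and 9184 at 60 days (log2 fold change 2.21 ± 0.24, edgeR adjusted p = 1.02e-06). Myh4, the fastest IIb chain, went the other way at 10589, 12065, 15743 and 12091 CPM at 10 days and 5058, 7799.9, 11078 and 9293 at 60 days, with 1 overlapping pair of libraries (log2 fold change -0.60 ± 0.21, edgeR adjusted p = 0.0226). That call did not pass without library 3 at 10 days (adjusted p = 0.08), library 1 at 60 days (0.0601) or library 2 at 60 days (0.0533), nor with upper-quartile factors (0.0567). The Myh1, Myh2 and Myh4 genes are near-identical copies in a cluster, so their split of fragments is uncertain. At 0 days Myh4 had a mean of 45930 CPM against 12622 and 8307 CPM at 10 and 60 days, whereas Myh2 had 5913 CPM, under its 60-day mean of 9141 CPM.

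Mybpc2, fast myosin binding protein C, had the largest rise of the fast list, from 368 ± 104 to 2613 ± 191 CPM (SD, n = 4; log2 fold change 2.83 ± 0.24, edgeR adjusted p = 9.37e-08). Pvalb, the fast fibre calcium buffer parvalbumin, fell by 0.39 on the log2 scale (edgeR adjusted p = 0.0154). Its call was lost without library 2 at 10 days (0.0717) or library 3 at 60 days (0.0604). The slow genes included Myh7, the type I heavy chain, at 1343, 1086, 558 and 707 CPM at 10 days and 3171, 3055, 1424 and 2375 at 60 days (log2 fold change 1.44 ± 0.30, edgeR adjusted p = 6.10e-04). Its groups touched closely, at 1343 against 1424 CPM, but did not overlap. Larger rises came from slow light chains. Myl3 was at 196, 88.1, 45.1 and 107 CPM at 10 days and 1516, 1455, 739 and 1322 at 60 days (log2 fold change 3.53 ± 0.36, edgeR adjusted p = 7.73e-07). Myl2 went from 59.9 ± 21.7 to 528 ± 177 CPM (log2 fold change 3.14 ± 0.29, edgeR adjusted p = 3.45e-07). Library 3 was the lowest of its group for Myl2, Myl3 and Myh7 at both times.

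Developmental and stress genes of the contractile apparatus did not move as a block. Of 21 measured, 10 rose and 5 fell, and the median of -0.13 turned positive when any of 4 libraries was left out (library 2 at 10 days, or 2, 3 or 4 at 60 days, at 0.027 to 0.142); 3 fell without library 4 at 60 days. Acta1 was at 9701, 7539, 6702 and 7190 CPM at 10 days and 50033, 33608, 35070.2 and 34751 at 60 days (log2 fold change 2.30 ± 0.18, edgeR adjusted p = 4.01e-08). Its cardiac and fetal counterpart Actc1 was at 205, 71.9, 149.8 and 226 CPM at 10 days and 17.3, 23.6, 29.0 and 32.9 at 60 days (log2 fold change -2.67 ± 0.41, edgeR adjusted p = 4.63e-05). The actins thus moved in opposite directions. Embryonic myosin, Myh3, rose rather than fell, at 650.1, 262, 349 and 431 CPM at 10 days and 2498, 1123, 1048 and 1465 at 60 days (log2 fold change 1.86 ± 0.34, edgeR adjusted p = 2.46e-04); its 0-day mean was 120.4 CPM. The stretch-responsive gene Ankrd2 went from 8.05 ± 4.75 to 61.9 ± 20.2 CPM (log2 fold change 2.94 ± 0.36, edgeR adjusted p = 4.87e-06). Krt8, a keratin that joins the fibre cytoskeleton, fell by 2.60 on the log2 scale, and by 1.97 without its highest library, 2 at 10 days with 40.8 CPM. Des, desmin, fell by 0.31 (edgeR adjusted p = 0.0154), and was not called without library 4 at 60 days (0.0788), with upper-quartile factors (0.0621) or with the 8 libraries alone (0.0550).

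Among 23 membrane and ion channel genes 11 rose and 6 fell (median 0.22, -0.03 with library totals). The water channel gene Aqp4, marking the sarcolemma of fast fibres, was at 7.43, 2.46, 2.24 and 2.92 CPM at 10 days and 66.1, 70.4, 81.0 and 67.1 at 60 days, and the highest 10-day value was still under 10 CPM (log2 fold change 4.22 ± 0.42, edgeR adjusted p = 6.00e-07). Its 0-day mean was 289.6 CPM, well above the 60-day mean of 71.1 CPM. Atp1b4, of the family of sodium pump beta subunits, ran at 27.8, 5.52, 10.4 and 13.6 CPM at 10 days and 95.5, 86.4, 70.4 and 87.8 at 60 days (log2 fold change 2.56 ± 0.33, edgeR adjusted p = 7.50e-06), above its 0-day mean of 27.1 CPM. Kcnn3, the apamin-sensitive potassium channel of denervated fibres, was at 113, 159.8, 119 and 130.2 CPM at 10 days and 26.5, 20.4, 16.8 and 17.7 at 60 days (log2 fold change -2.68 ± 0.16, edgeR adjusted p = 5.48e-09). Nos1, the neuronal nitric oxide synthase of the dystrophin complex, was at 25.3, 28, 25.9 and 26.1 CPM at 10 days and 4.98, 4.15, 4.44 and 2.58 at 60 days (log2 fold change -2.71 ± 0.19, edgeR adjusted p = 2.20e-08). Unlike Kcnn3, Nos1 ended below its 0-day mean of 18.8 CPM.

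All 73 tested genes of the respiratory chain rose, by 0.50 to 2.099 on the log2 scale with a median of 1.35, where 29.1% of all genes were higher; with library totals as the scaling all 73 still rose, with a median of 1.10. A further listed gene was at 0 in every library. Cox6a2, the muscle form of a cytochrome c oxidase subunit, was the largest at 532, 411, 429 and 452 CPM at 10 days and 1971, 1958, 1992 and 1893 at 60 days (log2 fold change 2.1 ± 0.15, edgeR adjusted p = 2.20e-08). Ndufs7, a core subunit of complex I, followed it at 119, 112, 101 and 93.3 CPM at 10 days and 344, 423, 412 and 359 at 60 days (log2 fold change 1.86 ± 0.16, edgeR adjusted p = 8.63e-08). Mitochondrial ribosome genes moved less evenly: 49 of 68 rose and 6 fell (33 and 13 with library totals), with a median of 0.42. Their extremes were Mrps36 (1.49 ± 0.12 SE) and Mrpl14 (1.44 ± 0.17) at the top and Mrpl17 (-0.52 ± 0.062) and Mrps10 (-0.46 ± 0.13) at the bottom, each with an edgeR adjusted p of 0.00616 or less.

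In the citric acid cycle and pyruvate dehydrogenase, 17 of 22 genes rose and 1 fell (median 0.62); 2 fell without library 3 at 10 days and 3 without library 1 at 60 days. Idh2, mitochondrial isocitrate dehydrogenase, was at 631, 284, 302 and 333 CPM at 10 days and 1244, 1710.2, 1912 and 1312 at 60 days, with library 1 apart at 10 days (log2 fold change 2.00 ± 0.26, edgeR adjusted p = 9.11e-06). Mdh1, a malate dehydrogenase of the shuttle into mitochondria, was at 458, 334, 309 and 364 CPM at 10 days and 963, 1443, 1455 and 1036 at 60 days (log2 fold change 1.74 ± 0.19, edgeR adjusted p = 1.23e-06). Suclg2, the subunit for GTP-linked succinyl-CoA ligase, was the fall, by 0.42 on the log2 scale. Fatty acid oxidation followed: 21 of 27 genes rose (13 with library totals), with a median of 0.53. Acadm, medium-chain acyl-CoA dehydrogenase, was at 391, 293, 266 and 308 CPM at 10 days and 826, 1013, 1018 and 840.5 at 60 days (log2 fold change 1.55 ± 0.16, edgeR adjusted p = 5.83e-07). Hadh, which works on the next steps of the same cycle, went from 72.5 ± 21.9 to 217 ± 24.4 CPM (log2 fold change 1.58 ± 0.21, edgeR adjusted p = 1.12e-05). The carnitine transporter gene Slc22a5 fell by 0.50 (edgeR adjusted p = 0.000327). Ucp3, the muscle uncoupling protein, was at 112, 157, 305 and 148 CPM at 10 days and 64.0, 97.0, 103 and 25.9 at 60 days and fell by 1.32 (edgeR adjusted p = 0.0375). The Ucp3 call was lost without library 2 or 3 at 10 days (0.0547, 0.131) or library 1 or 4 at 60 days (0.0959, 0.102), or with no expression filter (0.0612).

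The regulators of these genes did not share their direction. Of 17 measured, 6 rose (35.3%, beside 29.1% of all genes) and 5 fell (29.4%, beside 31.9%). The median of 0.04 turned to -0.20 with library totals. Ppargc1a, the coactivator PGC-1 alpha of mitochondrial genes, was at 8.85, 5.85, 4.18 and 7.81 CPM at 10 days and 8.99, 8.97, 10.2 and 9.20 at 60 days. Those groups nearly met, at 8.85 and 8.97 CPM, and the rise was small (log2 fold change 0.48 ± 0.17, edgeR adjusted p = 0.0239). It was not called without library 2 or 3 at 10 days (0.068, 0.0676) or library 3 at 60 days (0.0607), nor with library totals (0.252) or the 8 libraries alone (0.0685). Perm1, a muscle regulator induced by that coactivator, listed as RGD1304931 and overlapping Plekhn1 in RefSeq, was at 54.6, 20.4, 13.5 and 19.5 CPM at 10 days and 235, 252, 234 and 159 at 60 days (log2 fold change 3.02 ± 0.41, edgeR adjusted p = 1.47e-05; 3.63 without library 1 at 10 days). Esrrg, an estrogen-related receptor of oxidative fibres, was at 22.9, 24.7, 20.2 and 18.6 CPM at 10 days and 17.5, 7.46, 7.13 and 6.49 at 60 days and fell by 1.16, and the lowly expressed Esrrb, with 1 of its 60-day values under the floor, fell by 1.32. Pparg, the adipogenic nuclear receptor, went from 2.31 ± 0.43 to 5.63 ± 1.62 CPM (log2 fold change 1.28 ± 0.21, edgeR adjusted p = 8.02e-05).

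Sugar metabolism was higher at 60 days in most of its genes. Of 33 measured glycolysis and glycogen genes 24 rose and 5 fell (median 1.02). Fbp2, muscle fructose bisphosphatase, was at 6.12, 1.68, 5.01 and 4.64 CPM at 10 days and 82.0, 165, 202 and 113 at 60 days; its 60-day mean of 141 CPM was beside a 0-day mean of 131 CPM (log2 fold change 5.00 ± 0.50, edgeR adjusted p = 7.03e-07). Pfkfb1, which makes the activator of phosphofructokinase and overlaps Apex2 in RefSeq, rose from 12.3 ± 3.3 to 85.0 ± 23.5 CPM (log2 fold change 2.79 ± 0.30, edgeR adjusted p = 1.33e-06). Pfkm, the muscle phosphofructokinase, which overlaps Senp1, was at 1139, 891, 982 and 883 CPM at 10 days and 1948, 2773, 3062 and 2122 at 60 days (log2 fold change 1.35 ± 0.17, edgeR adjusted p = 4.63e-06), with a 0-day mean of 6163 CPM. The falls included the glucose-trapping hexokinase Hk2 at 132, 162, 137 and 110.3 CPM at 10 days and 51.5, 27.0, 31.4 and 32.6 at 60 days (log2 fold change -1.92 ± 0.18, edgeR adjusted p = 2.62e-07). Phka1, the regulatory subunit of phosphorylase kinase, was at 626, 861, 587 and 503 CPM at 10 days and 138, 77.6, 85.2 and 66.3 at 60 days (log2 fold change -2.81 ± 0.21, edgeR adjusted p = 3.5e-08). Hk2 and Phka1 ended below their 0-day means of 114 and 573 CPM.

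Of 11 energy-buffering genes 5 rose and 1 fell (median 0.22, -0.03 with library totals). The muscle creatine kinase gene Ckm was at 5737, 4905, 5370.3 and 4803 CPM at 10 days and 19559.6, 20878, 21667 and 17237 at 60 days (log2 fold change 1.93 ± 0.19, edgeR adjusted p = 3.80e-07). Its mitochondrial partner Ckmt2 went from 186 ± 56.1 to 1365 ± 466 CPM (log2 fold change 2.88 ± 0.29, edgeR adjusted p = 6.29e-07), and adenylate kinase Ak1 from 166 ± 26.8 to 703 ± 56.9 CPM (log2 fold change 2.08 ± 0.21, edgeR adjusted p = 6.54e-07). The fall was Ampd3, an AMP deaminase known to be induced in wasting muscle, at 288, 462, 359.7 and 342 CPM at 10 days and 78.2, 49.6, 44.1 and 35.6 at 60 days (log2 fold change -2.81 ± 0.27, edgeR adjusted p = 4.70e-07).

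Lipid synthesis genes moved in both directions. Of 24 fatty acid and triacylglycerol synthesis genes, 10 rose and 9 fell; 5 rose without library 2 at 10 days or library 4 at 60 days, and 4 with library totals, which turned the median from 0.04 to -0.21. Scd1, a stearoyl-CoA desaturase, was at 890.4, 1027, 772 and 975 CPM at 10 days and 69.7, 45.8, 25.2 and 51.2 at 60 days (log2 fold change -4.25 ± 0.31, edgeR adjusted p = 4.01e-08). Its 30-day mean of 1225 CPM was above both. Gpam, which starts triacylglycerol synthesis, fell by 0.97. Mlxipl, the carbohydrate-sensing factor ChREBP, was at 14.6, 11.7, 11.7 and 12.3 CPM at 10 days and 49.9, 54.2, 50.2 and 40.9 at 60 days, a clean rise (log2 fold change 1.95 ± 0.17, edgeR adjusted p = 1.28e-07). Mogat1, a monoacylglycerol acyltransferase, rose by 1.47, with 3.80 CPM in library 3 at 60 days and 1.24 to 1.34 CPM in the others.

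On lipid droplets, 2 of 8 tested genes rose and 3 fell (median 0.32); Pnpla2, the main triacylglycerol lipase, was listed at 0 in every library. Plin2, the droplet coat found in most cells, was at 147, 244, 199.8 and 221 CPM at 10 days and 49.3, 39.8, 39.5 and 43.5 at 60 days (log2 fold change -2.24 ± 0.19, edgeR adjusted p = 1.47e-07). Abhd5, the activator of that lipase, fell by 1.04. G0s2, an inhibitor of it, was at 9.84, 3.55, 3.00 and 9.74 CPM at 10 days and 19.1, 34.5, 29.1 and 32.5 at 60 days (log2 fold change 2.13 ± 0.47, edgeR adjusted p = 0.00105). Lipe, hormone-sensitive lipase, rose by 1.08 to a mean of 43.1 CPM. Adipocyte markers moved apart from these: 13 of 16 rose and 3 fell, with the highest median of the 43 lists (1.55). Adipoq, the adipocyte hormone adiponectin, was at 11.9, 6.11, 4.45 and 10.1 CPM at 10 days and 33.4, 30.3, 66.5 and 59.6 at 60 days (log2 fold change 2.54 ± 0.43, edgeR adjusted p = 1.11e-04). The 60-day libraries formed a lower and a higher pair, libraries 1 and 2 against 3 and 4. Plin1, the droplet coat of fat cells, was at 6.67, 1.84, 2.41 and 6.33 CPM at 10 days and 15.4, 8.41, 27.6 and 21.6 at 60 days (log2 fold change 2.07 ± 0.53, edgeR adjusted p = 0.00329), and library 2 was the lowest at both times. Retn, resistin, went from 0.825 ± 0.443 to 7.10 ± 2.20 CPM (log2 fold change 3.08 ± 0.48, edgeR adjusted p = 5.05e-05). The summed level of the list overlapped between the times (5221 to 6504 and 2638 to 6184 CPM), since most of it was Car3, carbonic anhydrase 3, also abundant in slow fibres. Car3 was at 5895, 5073, 5457 and 6193 CPM at 10 days and 5879.9, 2801, 2960 and 2104 at 60 days and fell by 0.72 (edgeR adjusted p = 0.0178), but not without library 2, 3 or 4 at 60 days (0.0547, 0.0509 and 0.0611). Thrsp, a lipogenic protein of fat and other tissues, fell by 2.02.

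Cholesterol genes moved in both directions, with 5 of 24 higher (20.8%, beside 29.1% of all genes) and 8 lower (33.3%, beside 31.9%). The list median was -0.08, and 0.01 with upper-quartile factors. Lss, lanosterol synthase, was at 20.4, 31.3, 24.4 and 25.4 CPM at 10 days and 6.13, 5.38, 6.14 and 6.31 at 60 days (log2 fold change -2.08 ± 0.14, edgeR adjusted p = 1.41e-08). Sc5d, a late desaturase of the pathway, was at 16, 16.7, 15.3 and 15.6 CPM at 10 days and 6.27, 3.81, 5.09 and 5.29 at 60 days (log2 fold change -1.63 ± 0.15, edgeR adjusted p = 1.51e-07). Pmvk, phosphomevalonate kinase, rose from 16 ± 0.624 to 30.7 ± 2.51 CPM, and the lowly expressed reductase Tm7sf2 from 0.965 ± 0.196 to 2.49 ± 0.179 CPM. Neither the sterol element TCACNCCAC (0 of 17 promoters of the list, 0.976% of all) nor the estrogen-related receptor element TNAAGGTCA (1 of 70 respiratory chain promoters, or 1.43%, against 1.00%), searched on both strands of the same 250 bases, stood in more than 1 listed promoter.

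Protein breakdown genes were mostly lower at 60 days. Of 35 proteasome subunits, 20 fell and 2 rose (median -0.22); of 23 atrophy ligases and their regulators, 12 fell and 4 rose (-0.26); of 35 autophagy and lysosome genes, 19 fell and 6 rose (-0.21). With library totals the falls were 31, 19 and 25, and with upper-quartile factors 16, 9 and 16. Fbxo32, the ligase atrogin-1 of wasting muscle, was at 167, 212, 172 and 147 CPM at 10 days and 27.6, 16.3, 16 and 10.9 at 60 days (log2 fold change -3.30 ± 0.25, edgeR adjusted p = 5.96e-08). Its 60-day mean of 17.7 CPM was under the 0-day mean of 50.7 CPM. Trim63, the partner ligase MuRF1, was at 553, 807, 737 and 555 CPM at 10 days and 620.3, 538, 290.4 and 308 at 60 days, with overlap (log2 fold change -0.59 ± 0.24, edgeR adjusted p = 0.0395). The Trim63 call was lost without library 2 or 3 at 10 days, 3 or 4 at 60 days, or 1 or 3 at 0 days (adjusted p 0.0533 to 0.133). RLE factors (0.0538), upper-quartile factors (0.0587) and the 8 libraries alone (0.0718) also ended it. Trim55, of the same ring finger family, fell more evenly, at 385, 471, 346 and 378 CPM at 10 days and 145, 129, 114 and 110 at 60 days (log2 fold change -1.66 ± 0.13, edgeR adjusted p = 3.98e-08).

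Ctsl1, the lysosomal protease cathepsin L, was at 963, 1479.5, 1006 and 1227 CPM at 10 days and 164, 168, 194 and 172 at 60 days (log2 fold change -2.74 ± 0.18, edgeR adjusted p = 1.33e-08). Map1lc3b, the LC3 protein of autophagosomes, was at 363, 434, 399.9 and 415 CPM at 10 days and 212, 190.1, 183 and 153 at 60 days (log2 fold change -1.13 ± 0.093, edgeR adjusted p = 6.77e-08). Ctsh, another lysosomal protease, rose by 0.60. Psmd2 and Psmd11, of the proteasome's regulatory cap, fell by 0.96 and 0.92, while Psmb6, of the catalytic core, rose by 0.36 and was not called with library totals; Psma6 rose by 0.16 (-0.09 with library totals), a call lost without any of 5 libraries (1 or 3 at 10 days, 1, 2 or 3 at 60 days; adjusted p 0.0582 to 0.0933), with the 8 libraries alone (0.0726) or with no expression filter (0.0932). The rises among the regulators were led by Ddit4, an inhibitor of mTOR signalling, at 21.0, 13.4, 17.7 and 10.5 CPM at 10 days and 56.6, 64.9, 40.3 and 53.7 at 60 days (log2 fold change 1.78 ± 0.26, edgeR adjusted p = 2.58e-05). Fkbp5, a chaperone of the glucocorticoid receptor, rose from 16.6 ± 1.54 to 30.9 ± 8.23 CPM.

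Genes that load transfer RNA with amino acids fell in 15 of 20 cases and rose in 1, with a median of -0.43 where 31.9% of all genes were lower. Wars, for tryptophan, fell by 0.92, and Farsb, for phenylalanine, by 0.79. Rars, for arginine, rose by 0.20, a direction that turned with library totals (-0.05). In the integrated stress response, which adjusts translation to amino acid supply, 9 of 23 fell and 7 rose (median -0.30). Those shares were 39.1% and 30.4%, beside 31.9% and 29.1% of all genes. Slc7a5, a transporter of large neutral amino acids, was at 8.50, 11.2, 8.80 and 10.1 CPM at 10 days and 1.25, 1.63, 1.52 and 1.78 at 60 days (log2 fold change -2.64 ± 0.23, edgeR adjusted p = 1.23e-07). Fgf21, a stress hormone, was called lower at 1.02, 2.37, 1.45 and 2.09 CPM at 10 days and 0.0922, 0.112, 0.117 and 0.267 at 60 days, where 3 of the 60-day values lay under the floor. In the other direction Gdf15, a secreted stress factor overlapping Lrrc25, went from 0.649 ± 0.427 to 4.12 ± 2.46 CPM (log2 fold change 2.65 ± 0.47, edgeR adjusted p = 1.47e-04), and Phgdh, the entry enzyme of serine synthesis, from 0.849 ± 0.46 to 3.23 ± 1.69 CPM.

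Of 23 heat shock genes 12 rose and 5 fell (6 and 7 with library totals; median 0.29). Hspb6, a small heat shock protein of muscle that overlaps Lin37, was at 772, 293, 262 and 383 CPM at 10 days and 2999, 2736, 2568 and 2348 at 60 days (log2 fold change 2.64 ± 0.28, edgeR adjusted p = 8.75e-07). Dnajb5 rose by 1.28. The cytosolic chaperone Hsp90ab1 was at 3377, 3933, 3566 and 3483 CPM at 10 days and 2208, 1930, 1964 and 1627 at 60 days (log2 fold change -0.89 ± 0.094, edgeR adjusted p = 7.11e-07). Its helper Hsph1 fell by 1.06. Antioxidant genes were mixed, with 10 of 24 higher and 12 lower (median -0.24). The metallothioneins, metal-binding proteins of similar sequence, fell. Mt1a was at 47.9, 38.9, 46.0 and 53.6 CPM at 10 days and 6.18, 6.28, 5.79 and 6.80 at 60 days (log2 fold change -2.89 ± 0.39, edgeR adjusted p = 1.23e-05), and Mt2A went from 48.1 ± 11.8 to 10.1 ± 2.04 CPM. Sod3, the extracellular superoxide dismutase, rose by 1.47, and Txnip, the thioredoxin inhibitor, by 1.21.

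Growth factor, myostatin pathway and polyamine genes fell in 13 of 30 cases and rose in 6 (median -0.27). Igfbp5, which binds insulin-like growth factors, was at 575, 784, 568 and 533 CPM at 10 days and 59.1, 39.5, 43.8 and 57.5 at 60 days, more than 9 times apart even between the nearest libraries (log2 fold change -3.62 ± 0.15, edgeR adjusted p = 2.48e-10). Igfbp6, of the same family, went the other way at 19.5, 18.6, 10.5 and 16 CPM at 10 days and 42.7, 45.7, 103 and 88.8 at 60 days (log2 fold change 2.11 ± 0.29, edgeR adjusted p = 1.32e-05). Igf1 itself was at 12.1, 7.06, 7.48 and 9.31 CPM at 10 days and 13.1, 9.93, 17.6 and 13.7 at 60 days, overlapping, and rose by 0.59 (edgeR adjusted p = 0.00589; not called with library totals). Sat1, the enzyme that starts polyamine breakdown, was at 228, 224, 244 and 257 CPM at 10 days and 54.5, 57.5, 51.8 and 60.4 at 60 days (log2 fold change -2.09 ± 0.11, edgeR adjusted p = 1.22e-09). Mstn, the growth inhibitor myostatin, was at 2.15, 1.91, 4.98 and 1.84 CPM at 10 days and 1.57, 1.18, 0.877 and 1.16 at 60 days; library 3 stood apart at 10 days, yet no 60-day library reached the 10-day ones (log2 fold change -1.17 ± 0.35, edgeR adjusted p = 0.00918). Its 0-day mean of 13.5 CPM was above both. Acvr2b, a receptor of myostatin, went from 0.669 ± 0.339 to 2.14 ± 0.229 CPM (log2 fold change 1.66 ± 0.33, edgeR adjusted p = 3.56e-04).

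Of 16 collagen genes measured, 8 rose and 3 fell (median 0.56), and Col1a2 was listed at 0 in every library. Col1a1, the main chain of scar and tendon collagen, was at 1151, 256, 509 and 870.1 CPM at 10 days and 278, 166, 432 and 437 at 60 days, with 10-day libraries spread over more than 4-fold (log2 fold change -1.09 ± 0.44, edgeR adjusted p = 0.0437). That call was lost without library 1 or 4 at 10 days, 1 or 2 at 60 days, or 3 or 4 at 0 days (adjusted p 0.0508 to 0.165). It was also lost with upper-quartile factors, limma-voom, no expression filter, the 8 libraries alone or the title letter as a term (0.0525 to 0.0712). Col1a1 overlaps Sgca in RefSeq. Col3a1, of early repair, was at 823, 248, 443 and 677 CPM at 10 days and 562, 453, 788 and 982 at 60 days and did not pass (log2 fold change 0.35 ± 0.36, edgeR adjusted p = 0.420). Col11a1 and Col7a1 fell by 1.55 and 1.53. Col5a3, a minor fibril chain, rose from 13.3 ± 5.44 to 49.4 ± 5.53 CPM (log2 fold change 1.89 ± 0.29, edgeR adjusted p = 5.04e-05). The basement membrane chain Col4a3 rose from 2.01 ± 0.473 to 7.06 ± 2.37 CPM.

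Other matrix genes split as well. Of 25 glycoprotein and collagen-processing genes 8 rose and 7 fell; 3 fell without library 1 at 10 days or library 1 or 2 at 60 days, and 4 without library 4 at 10 days, while 5 rose without library 2 at 10 days. The median of 0.23 was -0.02 with library totals. Tnn, tenascin-N, was at 40.2, 7.52, 21.1 and 33.3 CPM at 10 days and 0.138, 0.280, 4.44 and 0.356 at 60 days (log2 fold change -4.39 ± 0.89, edgeR adjusted p = 5.49e-04); library 1 at 60 days was at the floor, and without library 3 at 60 days the log2 fold change was -6.61. Its relative Tnc, tenascin-C, fell by 1.65 with overlapping groups (edgeR adjusted p = 0.0136) and was not called without library 1 at 10 days (0.0527) or with limma-voom (0.0817). Eln, elastin, was at 39.1, 20.4, 27.9 and 39.4 CPM at 10 days and 75.2, 66.4, 104 and 102 at 60 days (log2 fold change 1.45 ± 0.27, edgeR adjusted p = 2.34e-04). Fbn1, fibrillin, went from 29.6 ± 10.5 to 71.4 ± 19.6 CPM (log2 fold change 1.27 ± 0.28, edgeR adjusted p = 0.00108). Among 21 proteases and inhibitors 8 rose and 5 fell (8 fell without library 2 at 10 days, with a median of -0.16; otherwise 0.22, or -0.03 with library totals). Adam19, a membrane metalloprotease, was at 281, 362, 249.8 and 321 CPM at 10 days and 72.8, 31.7, 30.7 and 42.4 at 60 days (log2 fold change -2.77 ± 0.29, edgeR adjusted p = 1.13e-06). Mmp13, a collagenase, was called lower at 2.84, 1.35, 3.46 and 1.41 CPM at 10 days and 0.184, 0, 0.818 and 0.0444 at 60 days. Its values in libraries 2 and 4 at 60 days lay under the floor. Timp4, a protease inhibitor lying within Syn2, rose from 7.62 ± 0.389 to 29.5 ± 5.01 CPM (log2 fold change 1.95 ± 0.16, edgeR adjusted p = 6.05e-08).

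Genes of tendon, cartilage and bone gave 5 rises and 3 falls among 13 (median -0.34, 0.01 without library 1 at 10 days). Scx, the tendon transcription factor scleraxis, which overlaps Bop1, was at 57.0, 67.7, 63.9 and 61.9 CPM at 10 days and 7.61, 6.56, 6.25 and 8.89 at 60 days (log2 fold change -3.09 ± 0.15, edgeR adjusted p = 6.68e-10). Acan, the cartilage proteoglycan aggrecan, was called lower at 5.83, 1.61, 3.36 and 3.81 CPM at 10 days and 0.138, 0.0561, 0.0585 and 0.222 at 60 days, with 3 of the 60-day values at or under the floor. Cilp, a cartilage matrix protein, was at 75.2, 43.5, 40.4 and 75.3 CPM at 10 days and 223, 105, 145 and 240.2 at 60 days (log2 fold change 1.61 ± 0.27, edgeR adjusted p = 1.06e-04). Col2a1, cartilage collagen, stayed under 1 CPM in all 8 libraries although it was called higher. Its values of 0.0580, 0.0329 and 0.0659 CPM in libraries 1, 2 and 3 at 10 days lay under the floor.

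**Figure D4:**
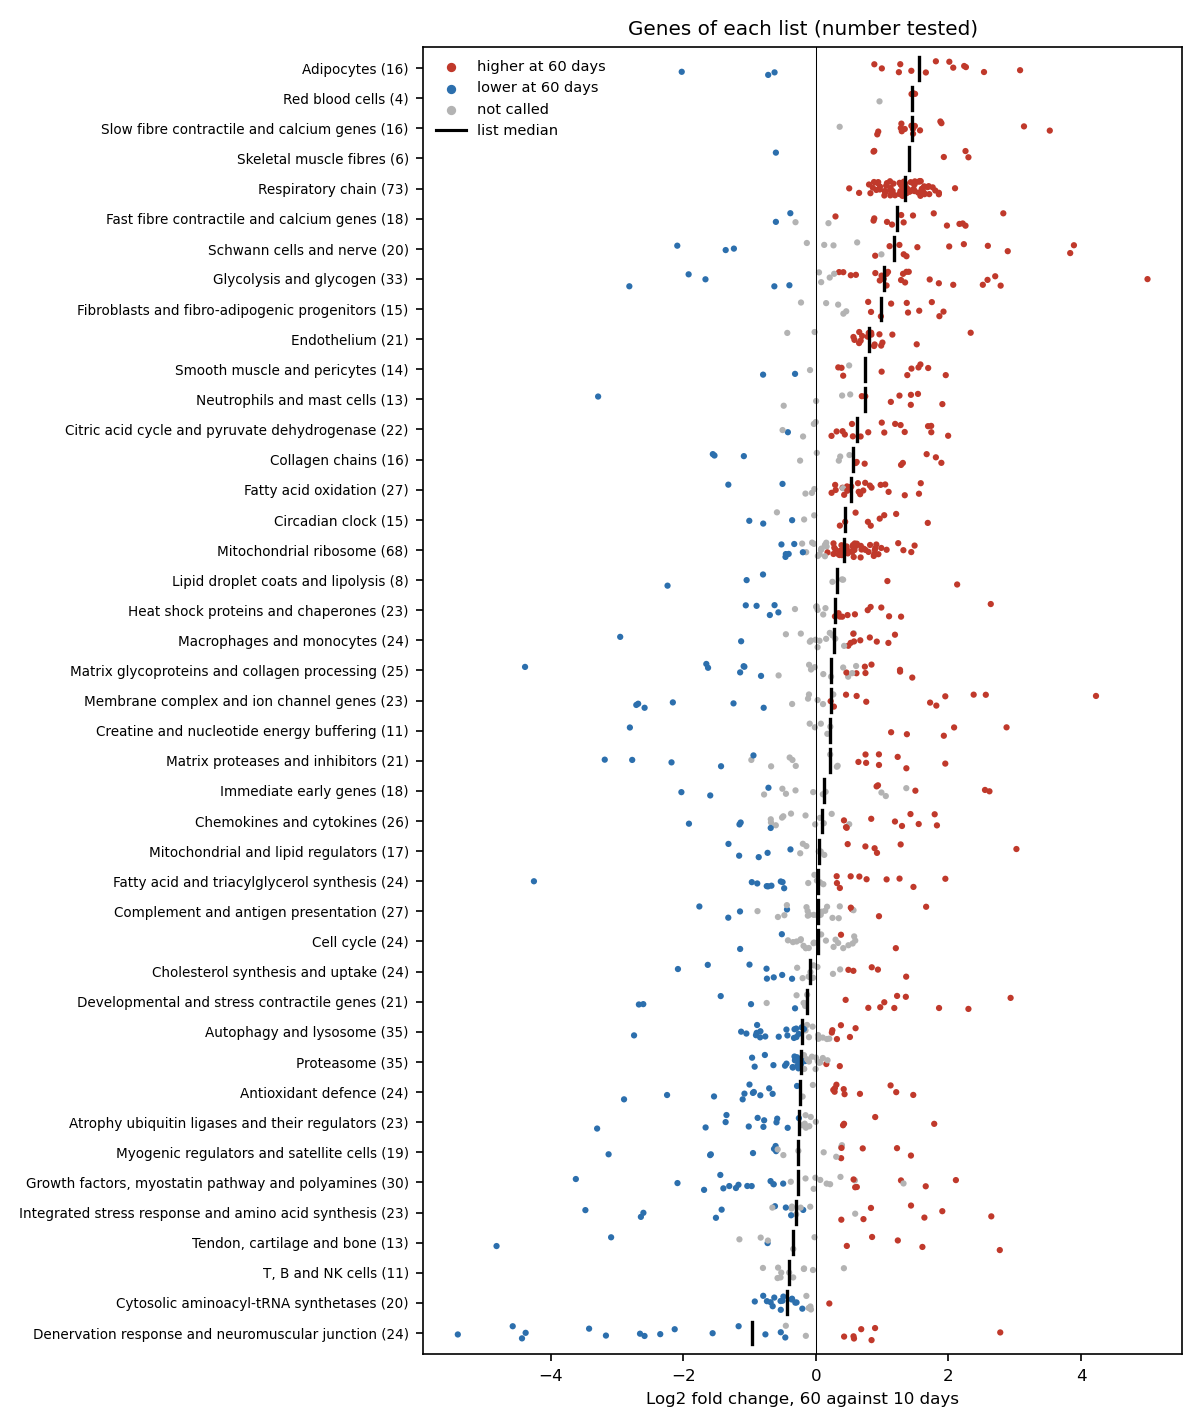
Log2 fold change at 60 against 10 days of each tested gene in the 43 lists, ordered by list median (black bars); red points were called higher, blue lower, grey not called. Adipocyte markers (median 1.55) and the denervation list (-0.96) are at the ends, and the respiratory chain genes are all right of 0.

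Markers of cells other than fibres were higher in several lists. Of 20 Schwann cell and nerve genes 12 rose and 3 fell (median 1.19), and their summed level was 68.4 to 110.3 CPM at 10 days and 201 to 398 CPM at 60 days. Mag, a myelin adhesion protein, was at or under the floor in 3 of the 10-day libraries and was called higher at 0.174, 0.0329, 0.0330 and 0 CPM at 10 days and 0.599, 0.337, 1.34 and 1.51 at 60 days. Nefm, an axonal neurofilament, was at 9.11, 6.57, 4.65 and 6.15 CPM at 10 days and 2.35, 2.08, 0.468 and 5.2 at 60 days and fell by 1.36 (edgeR adjusted p = 0.0311), a call lost without any of 5 libraries (1 or 2 at 10 days, 1, 2 or 3 at 60 days; 0.0502 to 0.0796), and its log2 fold change was -1.98 without library 4 at 60 days. Gdnf, a nerve growth factor of denervated tissue, was called lower at 0.493, 1.25, 1.09 and 0.861 CPM at 10 days and 0.369, 0.112, 0.0585 and 0.267 at 60 days. Its values in libraries 2 and 3 at 60 days lay under the floor.

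Endothelial genes rose in 19 of 21 cases, with a median of 0.81 and 0 falls (1 without library 4 at 10 days or library 1 at 60 days), and summed to 521 to 676 CPM at 10 days and to 1250 to 1984 CPM at 60 days. Their defining genes Pecam1 and Cdh5 rose by 0.80 and 0.65. Vegfa, the vessel growth factor that fibres secrete, was at 182, 162, 156 and 176 CPM at 10 days and 645, 1134, 881 and 748 at 60 days (log2 fold change 2.33 ± 0.17, edgeR adjusted p = 2.12e-08). It is counted in the endothelial sum, with means of 169 CPM at 10 days and 852 CPM at 60 days. Apln, the peptide apelin, rose by 1.52, with library 4 at 60 days apart at 12.4 CPM. Of 14 smooth muscle and pericyte genes 10 rose and 2 fell (1 fell without library 4 at 60 days; median 0.75). Cnn1, calponin, went from 1.39 ± 0.152 to 5.42 ± 3.04 CPM (log2 fold change 1.96 ± 0.34, edgeR adjusted p = 1.10e-04), and Lmod1, leiomodin, from 7.35 ± 1.57 to 23.9 ± 13.1 CPM. Abcc9, a potassium channel subunit also made by fibres, fell by 0.80. Fibroblast and fibro-adipogenic progenitor genes rose in 10 of 15 cases, summing to 898 to 1053 and then 2096 to 3557 CPM; Cd34 and Cd248 were listed at 0. Gsn, gelsolin, was at 345, 445, 367 and 312 CPM at 10 days and 1196, 1133, 1481 and 1768 at 60 days (log2 fold change 1.93 ± 0.18, edgeR adjusted p = 2.03e-07). Gsn is a large part of the fibroblast sum, with means of 367 CPM at 10 days and 1394 CPM at 60 days. Pi16, a marker of adventitial fibroblasts, was at 11, 12.3, 9.26 and 7.07 CPM at 10 days and 36.0, 27.8, 35.0 and 45.2 at 60 days (log2 fold change 1.86 ± 0.22, edgeR adjusted p = 3.54e-06). The part of cell composition in the rises of the matrix and adipocyte genes was not tested.

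Of 24 macrophage genes 9 rose and 2 fell, and the summed level overlapped (441 to 576 and 285 to 521 CPM). Gpnmb, a lysosomal glycoprotein also made by other cells, was at 214, 225, 289 and 293 CPM at 10 days and 26.9, 22.3, 26.0 and 56.5 at 60 days (log2 fold change -2.95 ± 0.28, edgeR adjusted p = 3.77e-07). Cd163, of resident macrophages, was at 4.47, 5.13, 2.97 and 3.04 CPM at 10 days and 8.85, 8.08, 8.42 and 10.3 at 60 days (log2 fold change 1.19 ± 0.26, edgeR adjusted p = 8.30e-04). The scavenger receptor Msr1 rose by 1.09. Cd68, the common macrophage marker, was at 7.75, 5.16, 11 and 4.73 CPM at 10 days and 4.70, 4.21, 5.96 and 11.9 at 60 days and did not pass (log2 fold change -0.091 ± 0.34, edgeR adjusted p = 0.832). Cx3cr1 was under 1 CPM in all 8 libraries; its fall was lost without any of 5 libraries (1 or 3 at 10 days, 2, 3 or 4 at 60 days; edgeR adjusted p 0.0666 to 0.0962). It was also lost with DESeq2 (0.0578), limma-voom (0.0614), upper-quartile factors (0.0523) or counts thinned to equal depth (0.0697), and 2 of its 60-day values were at the floor. Of 11 T, B and NK cell genes edgeR called 0, with 0 at an unadjusted p under 0.05; DESeq2 also called 0, and without library 4 at 60 days edgeR called 4 lower. It called 1 lower without any of 9 other libraries, and 2 lower with library totals. Of 13 neutrophil and mast cell genes 8 rose and 1 fell (5 rose without library 4 at 60 days). The calprotectin partners went apart. S100a8 was at 2.38, 7.72, 4.45 and 5.44 CPM at 10 days and 0.369, 0.449, 0.701 and 0.533 at 60 days (log2 fold change -3.28 ± 0.59, edgeR adjusted p = 1.99e-04). S100a9 was at 0.464, 0.756, 0.626 and 0.184 CPM at 10 days and 0.738, 1.40, 1.29 and 2.44 at 60 days (log2 fold change 1.54 ± 0.38, edgeR adjusted p = 0.00231). Ms4a2, of the mast cell IgE receptor, rose by 1.91 to 0.794 CPM.

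Chemokine and cytokine genes rose in 10 of 26 cases and fell in 4 (2 fell without library 3 or 4 at 10 days or 3 at 60 days; median 0.09, -0.16 with library totals). Il15, a cytokine made by muscle, was at 4.41, 3.52, 5.27 and 3.72 CPM at 10 days and 9.96, 17.3, 17.0 and 15.8 at 60 days (log2 fold change 1.83 ± 0.19, edgeR adjusted p = 5.26e-07). Ccl11, eotaxin, went from 1.25 ± 0.537 to 4.34 ± 1.69 CPM (log2 fold change 1.79 ± 0.41, edgeR adjusted p = 0.00125). Ccl7, which draws monocytes, fell by 1.15 with overlap, and Cxcl11 by 1.91, a call lost without library 4 at 10 days (edgeR adjusted p = 0.0509); 2 of the Cxcl11 values at 60 days lay under the floor. Ccl2 was at 2.90, 1.87, 4.02 and 3.44 CPM at 10 days and 1.01, 1.51, 2.81 and 2.36 at 60 days and did not pass (log2 fold change -0.68 ± 0.36, edgeR adjusted p = 0.116), though it did with library totals. Complement and antigen presentation gave 4 rises and 4 falls among 27 genes (median 0.03, -0.21 with library totals). C3 and Cfi, of the complement cascade, fell by 1.32 and 1.76, while C6 and the complement inhibitor Cd55 rose by 1.66 and 0.95. Red blood cell genes rose in 3 of 4 cases: Hba1, an alpha-globin with near-identical copies, from 108 ± 13.5 to 305 ± 110.3 CPM and Alas2, of haem synthesis in red cells, from 2.90 ± 0.292 to 8.04 ± 3.00 CPM. Their summed level (198 to 262 and 352 to 869 CPM) was higher at 60 days, and its part in other results was not tested. The sum of the endothelial list, which counts Vegfa, was also higher.

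Clock genes rose in 9 of 15 cases and fell in 3; 5 rose without library 2 at 60 days, and with library totals 4 rose and 6 fell. Npas2, a partner of the clock activator, rose by 1.69, and the repressor Nr1d1, which overlaps Thra, by 1.21. Tef and Bhlhe40 fell by 0.79 and 1.00. Immediate early genes, which respond within minutes to stimulation or dissection, rose in 5 of 18 cases and fell in 3 (8 rose without library 4 at 0 days, and 5 fell without library 1 at 60 days). Nr4a1, an activity-responsive nuclear receptor, was at 57.8, 17.2, 37.5 and 16.6 CPM at 10 days and 225, 341, 131 and 95.4 at 60 days (log2 fold change 2.62 ± 0.56, edgeR adjusted p = 8.87e-04). Dusp1, a phosphatase of stress kinases, was at 42.6, 15.9, 24.5 and 21.8 CPM at 10 days and 91.8, 218, 204 and 102 at 60 days (log2 fold change 2.55 ± 0.37, edgeR adjusted p = 2.51e-05). Myc and Fosl2 fell by 1.59 and 2.03. The time of day and the handling at dissection are not given in the labels, and their part was not tested.

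Cell cycle genes showed few calls: 2 of 24 rose and 2 fell, or 8.33% each way beside 29.1% and 31.9% of all genes. Their summed level overlapped, at 177 to 191 and 155 to 209 CPM. Mki67, the proliferation marker, was at 3.37, 1.41, 3.92 and 2.92 CPM at 10 days and 2.91, 2.69, 2.1 and 5.11 at 60 days and did not pass (log2 fold change 0.15 ± 0.27, edgeR adjusted p = 0.642). Rrm2, which makes deoxynucleotides and overlaps Cys1, fell by 1.14, and Pcna, the replication clamp, by 0.51. Bub1, a spindle checkpoint kinase, rose by 1.21, and Tpx2 by 0.38, a call lost without library 2 or 4 at 10 days or 1 or 3 at 60 days (edgeR adjusted p 0.0791 to 0.103). The Tpx2 call was also lost with limma-voom (0.0792) and with library totals, where the log2 fold change was 0.12 (0.510).

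Several of the largest changes belonged to no list. Ostn, the secreted muscle peptide osteocrin or musclin, had the largest rise of the named genes, at 0.522, 0.690, 0.791 and 0.891 CPM at 10 days and 13.4, 43.6, 44.7 and 17.4 at 60 days (log2 fold change 5.35 ± 0.68, edgeR adjusted p = 6.46e-06). All 10-day values were under 1 CPM, and libraries 2 and 3 at 60 days were more than 2 times libraries 1 and 4. Its 0-day mean was 6.16 CPM, so the 60-day mean of 29.7 CPM was above unoperated muscle. Anxa8, a calcium-dependent membrane-binding annexin, was at 3.60, 5.39, 2.50 and 3.10 CPM at 10 days and 167, 53.0, 55.8 and 78.8 at 60 days (log2 fold change 4.60 ± 0.36, edgeR adjusted p = 7.79e-08), from a 0-day mean of 0.31 CPM; part of its deposited values are fractional. Crym, a cytosolic binder of thyroid hormone, was at 1.62, 1.74, 2.11 and 1.29 CPM at 10 days and 21.2, 32.5, 24.6 and 30.6 at 60 days (log2 fold change 4.01 ± 0.24, edgeR adjusted p = 5.48e-09), against 3.03 CPM at 0 days. Cdkn1c, the imprinted cell cycle inhibitor p57, was at 12.4, 5.82, 6.85 and 10.1 CPM at 10 days and 215, 98.8, 68.2 and 108 at 60 days (log2 fold change 3.79 ± 0.35, edgeR adjusted p = 3.08e-07), above its 0-day mean of 7.62 CPM. Gadd45g, a stress and growth arrest gene, was at 13.6, 5.65, 8.93 and 9.13 CPM at 10 days and 96.9, 168, 164 and 73.0 at 60 days (log2 fold change 3.75 ± 0.45, edgeR adjusted p = 3.75e-06). Ramp1, a subunit of the receptor for the nerve peptide CGRP, was at 5.83, 2.17, 1.61 and 3.14 CPM at 10 days and 26.3, 51.8, 45.8 and 37.9 at 60 days (log2 fold change 3.65 ± 0.40, edgeR adjusted p = 1.57e-06).

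The largest fall among genes with a mean of at least 5 CPM was that of Adra1b, the alpha-1B adrenergic receptor, at 20.1, 25.3, 22.7 and 27.0 CPM at 10 days and 0.184, 0.449, 0.351 and 0.178 at 60 days (log2 fold change -6.38 ± 0.36, edgeR adjusted p = 4.30e-09). Its 60-day values were close to the floor, and the 0-day mean of 0.0518 CPM was under it. Emb, the membrane glycoprotein embigin, was at 170, 134, 185 and 245 CPM at 10 days and 9.04, 4.43, 4.62 and 7.51 at 60 days (log2 fold change -4.83 ± 0.32, edgeR adjusted p = 2.26e-08). Faah, which breaks down fatty acid amides such as anandamide, was at 128, 159.6, 169 and 161 CPM at 10 days and 5.90, 9.82, 4.73 and 11.1 at 60 days (log2 fold change -4.28 ± 0.29, edgeR adjusted p = 2.38e-08). Tac4, a tachykinin precursor gene, was at 11.6, 24.9, 17.7 and 21.5 CPM at 10 days and 1.29, 0.673, 0.117 and 0.800 at 60 days (log2 fold change -4.65 ± 0.51, edgeR adjusted p = 1.54e-06), with library 3 at 60 days under the floor. All 4 genes had 60-day means nearer to the 0-day means (0.0518, 1.26, 1.98 and 0.125 CPM) than to the 10-day means of 23.8, 184, 155 and 18.9 CPM.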

How the data were processed

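RNA of 16 rat supraspinatus samples was extracted with miRNeasy and made into libraries with the TruSeq mRNA v2 kit, per the labels' protocols. The authors deposited 1 table of expected counts, estimated fragments per gene, made with TopHat2 2.0.9, Bowtie2 2.1.0.0, Cufflinks and Cuffdiff 2.1.1 on rn5, per the submitters' processing notes; annotation and strand setting are not given in the sources used here, so overlapping genes may share fragments. Values were rounded to whole counts (233 genes held fractions). Of the genes in the table, 2637 were at 0 in all 16 libraries, among them Col1a2, Pnpla2, Cd34 and Cd248. Whether such a 0 is an absent transcript or a gap in the deposited counting was not tested. All 16 libraries entered edgeR 4.0.16 (R 4.3.3; limma 3.58.1) with TMM factors, its expression filter and robust quasi-likelihood F tests of 60 against 10 days, Benjamini-Hochberg adjusted over 11658 genes and called under 0.05; SE is the log2 fold change over the root of F. Library measures were tested by exact two-sided permutation (scipy 1.17.1, python 3.11.15), and plots drawn with matplotlib 3.10.9. The fit was tested on simulated data.

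Named genes were the 10 largest rises and falls, the 2 largest in each direction of 43 lists (1003 distinct genes in the table), and a fixed panel. The 10 largest were taken from called genes with a mean of at least 5 CPM and no overlap. Symbols of the LOC, RGD, MGC, AABR or accession type were left out of that ranking. The comparison and lists were chosen with earlier results of these data known. Lists are described by counts and medians, without a test. Promoters are RefSeq entries of GRCr8 matched by symbol (14500 of 17147 matched), and no rn5 coordinate is used. Beside the overlaps given above, RefSeq spans overlap another gene for Musk (4930522L14Rikl), Phka1 (Klhdc2l1), Cxcl11 (Art3) and Mrpl14 (Tmem63b). Myh7, Nefm and Gpam each overlap a LOC entry. Some genes that the rule names are not reported here. Alternatives were other scalings, DESeq2 1.42.0, limma-voom, filters, equal depth, the 8 libraries alone, a replicate block, the title letter (L or R, its meaning not stated), and leaving out each library. No pair of replicates was a copy: the chi-square per gene was 13.9 to 81.0 over 12 pairs.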

Additional observations from a re-analysis of the deposited data

Results flagged for a closer look

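In 378 groups of 4 libraries, 22 had 1 library far from the other 3 by Dixon's test, a test that chance passes in about 1 in 20 groups. No explanation was tested for any of them. Of the 22 values, 11 lay in 10-day libraries and 11 in 60-day libraries, with 6 in library 1 and 4 in library 2 at 10 days and 5 in library 4 and 4 in library 1 at 60 days.

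Library 1 at 10 days was high for Ache (15.5 CPM, others 6.30 to 7.48), Aqp4 (7.43, others 2.24 to 2.92), Dok7 (17.0, others 14.7 to 15), Idh2 (631, others 284 to 333), Perm1, listed as RGD1304931 (54.6, others 13.5 to 20.4), and Ms4a2 (0.377, others 0.123 to 0.165). All 6 of these genes were also called higher at 60 days. Library 2 at 10 days was high for Igfbp5 (784 CPM, others 533 to 575), Mrpl17 (210.2, others 187 to 191) and Wars (90.9, others 72.0 to 74.2), and low for Calcr (0.427, others 0.824 to 0.900). Library 3 at 10 days was high for Mstn (4.98 CPM, others 1.84 to 2.15).

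Library 1 at 60 days was high for Acta1 (50033 CPM, others 33608 to 35070.2), Cdkn1a (2199, others 852 to 987), Esrrg (17.5, others 6.49 to 7.46) and Mef2a (74.0, others 36.8 to 38.3). Library 3 was high for Mogat1 (3.80 CPM, others 1.24 to 1.34) and Tnn (4.44, others 0.138 to 0.356). Library 4 was high for Apln (12.4 CPM, others 4.06 to 4.44), Gpnmb (56.5, others 22.3 to 26.9), Col2a1 (0.844, others 0.449 to 0.468) and Fgf21 (0.267, others 0.0922 to 0.117), and low for Myh1 (14777, others 18531 to 19150.2).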

How the results depend on the processing

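The count of changed genes was 6528 to 7363 under the other scalings, tools, filters and depths at the same threshold, 5689 at an adjusted p of 0.01, and 6570 to 7367 when 1 library was left out. Genes higher at 60 days numbered 2058 with library totals instead of 3398. The share of calls that were higher was 47.7%, 50.3% with RLE factors or DESeq2, 55.3% with upper-quartile factors and 28% with library totals, which shifted the median of all genes by -0.25. With library totals the higher count of 19 of 43 lists and the lower count of 13 moved by over 1.5 times, and 10 medians changed sign. With DESeq2 these numbers were 0, 1 and 0.

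Directions that changed belonged to small differences. The log2 fold change of Mb was 0.014 with RLE factors and with DESeq2, 0.069 with upper-quartile factors, 0.015 with a mean of at least 1 CPM and -0.151 to 0.077 with 1 library left out. Cd68 was -0.513 to 0.189 with 1 library left out, and above 0 without library 1 or 2 at 60 days or library 3 at 10 days. Mki67 was -0.091 with library totals and -0.155 to 0.325 with 1 library left out, below 0 without library 2 at 10 days or 4 at 60 days. Psma6 was -0.093 and Rars -0.048 with library totals. The cause was not tested.

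With 1 library left out, the difference in totals was -7.95 to -6.22 M fragments and that in the share of the 10 largest genes 5.33 to 6.02 percentage points. The exact permutation test then gave p = 0.0571 for both, its minimum for 3 against 4 libraries. The difference in genes at equal depth was -76.0 to 0.667, the latter without library 1 at 60 days. The element TNAAGGTCA stood in 4.29% of the respiratory chain promoters when the whole entry of 300 bases was searched.

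With the replicate number as a block, 7035 genes changed, and Col1a1 (adjusted p = 0.0685), Cx3cr1 (0.0503) and Psma6 (0.0518) were not called. The numbers do not pair the libraries: same-numbered libraries correlated by 0.0626 on average (-0.0579 to 0.1583), and 2 of 8 correlated best with their own number. Depth limits genes near 3 fragments: the fold changes of Tnn, Tac4, Esrrb, Cxcl11, Cx3cr1, Mmp13 and Gdnf rest in part on 1 or 2 libraries at 60 days that were at or under that floor.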
